A study of Homo sapiens with 6 samples.

Results

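The kinesin family is a set of genes for motor proteins that move along microtubules, and it was followed here in 3 libraries of ENO1 knockdown cells and 3 control libraries. Members were chosen by name: every row of the count table whose Ensembl identifier maps to a protein-coding symbol that starts with KIF and a digit, together with KIFC1, KIFC2 and KIFC3. Of 42 such genes listed, 37 had a row among the 23227 of the table, while KIF2B, KIF6, KIF12, KIF13A and KIF19 were not analysed here. The members fell into 14 mitotic kinesins, 14 transport kinesins and 9 others with ciliary, centriolar, signalling or less certain roles. The cells were MV4-11, an established human acute myeloid leukaemia line that carries a KMT2A rearrangement and mutated FLT3. All libraries have the same line and a genotype given as WT. The knockdown libraries are labelled sh-ENO1, and the column names give a single hairpin, sh2, against ENO1, the gene of the glycolytic enzyme alpha-enolase. The controls carry the letters NC and are described as having had no treatment; no label says if a control hairpin was used in them. With 1 hairpin and 1 line, effects of the hairpin other than on ENO1 cannot be told apart from the loss of ENO1. No label says that libraries of a group were grown separately, so the spread between them may be technical.

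Kinesins share a motor domain that hydrolyses ATP to step along a microtubule, and differ in the tails that bind cargo or other microtubules. Mitotic kinesins build the spindle, move chromosomes and finish cell division, and in dividing cells their mRNAs peak in G2 and mitosis under the control of the DREAM complex, MYBL2 and FOXM1. Transport kinesins carry vesicles, organelles and protein complexes, and most of them are needed whether or not a cell divides. A leukaemia line in culture divides quickly, so both kinds are normally present.

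The targeted gene was low in every library labelled as knockdown: ENO1 had 2225, 2225 and 2070 counts in the knockdown libraries, against 84016, 79566 and 80058 counts in the control libraries, a mean of 3.13% of the control level after scaling to library size (CPM, counts per 1 M). Library totals ran from 20044602 to 21670135 counts in the knockdown and from 24778469 to 26373960 in the control group. Mitochondrially encoded genes took 9.27 to 9.69% of the counts in knockdown libraries and 6.69 to 6.88% in control libraries; the part of this shift in the results below was not tested. Knockdown replicate 3 and control replicate 2 differed somewhat more than the rest from libraries of their own group. All 7 myeloid leukaemia markers looked at were expressed, with a summed level of 1671 to 1724 CPM in the knockdown and 1741 to 1764 CPM in the control libraries. Within this sum the markers moved far apart: MPO, LYZ and CSF3R were at 16.3%, 18.8% and 21.9% of the control level and SPI1 at 79.4%, whereas PTPRC was at 214%, FLT3 at 126% and CD33 at 117%. The part of this shift in the kinesin results was not tested. The 4 lymphocyte markers summed to at most 5.16 CPM and the 5 epithelial and fibroblast markers to at most 0.541 CPM.

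Kinesin mRNAs were more often lower than higher in the knockdown cells. Of the 37 members, 32 passed the filter on low counts, and of these 16 were lower and 4 higher at an edgeR quasi-likelihood adjusted p under 0.05, with Benjamini-Hochberg adjustment over all 14635 genes tested. Over all genes tested, 59.9% were called, 30.5% as lower and 29.4% as higher, while 62.5% of the tested kinesins were called. The family was thus called about as often as other genes, with a different split of directions, and this difference in split was not tested. With library-size or upper-quartile scaling the split was 14 lower and 6 higher, and without knockdown replicate 2 it was 15 lower and 7 higher. With knockdown replicate 3 and control replicate 2 set aside the counts were 16 lower and 4 higher, but of different genes: KIF24 and KIFC2 lost their calls, and KIF1B and KIF2C were called lower. The median log2 fold change was -0.17 over the tested kinesins and 0.0043 over all genes. Most changes were small, and only KIF3C, KIF3B, KIF18B and KIF26B passed the test with a change of 1.5-fold or more. At that size 8.77% of all genes were lower and 12.3% higher. For 21 of the 32 members the knockdown and control libraries did not overlap, as was the case for 64.3% of all genes. The 5 members that did not pass the filter (KIF1A, KIF4B, KIF5A, KIF25 and KIF26A) had at most 11 counts in any library. In bulk RNA, fewer cells in a phase of the cell cycle and less mRNA per cell cannot be told apart.

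**Figure D1:**
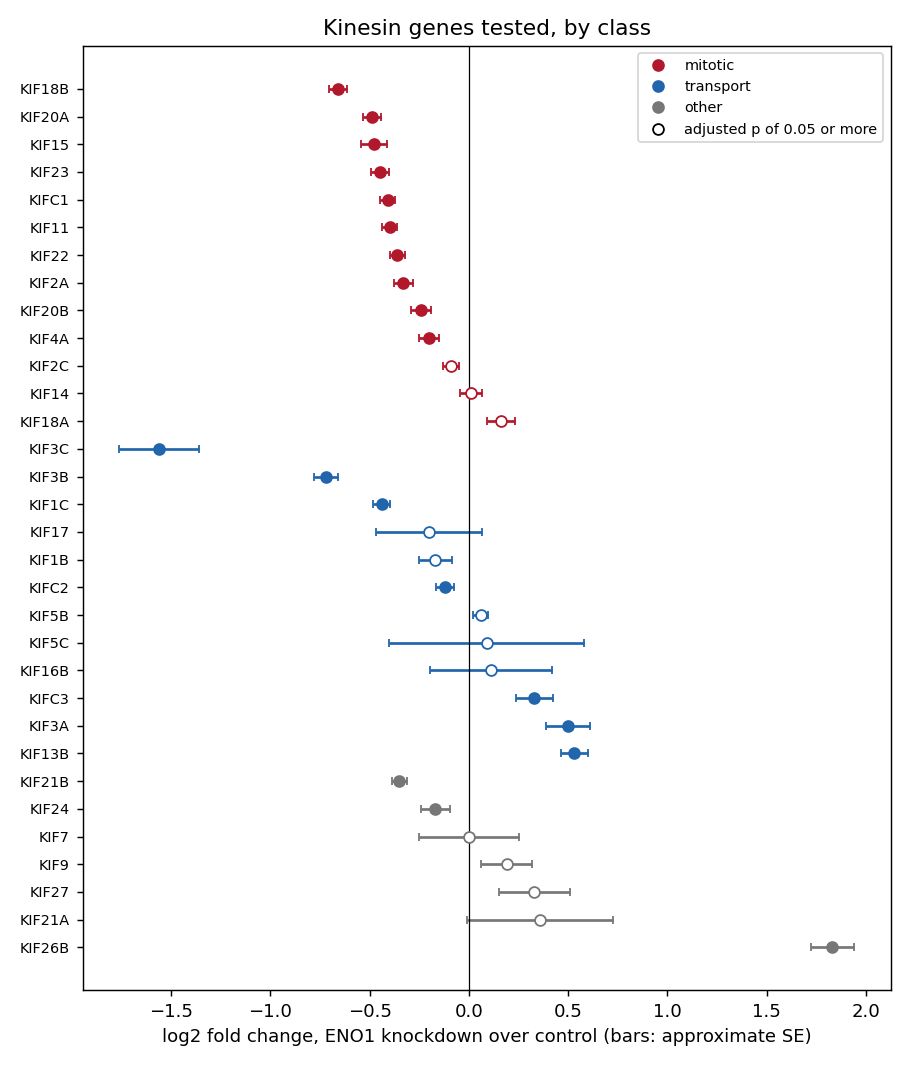
Log2 fold change of each tested kinesin (ENO1 knockdown over control, x axis) with its approximate standard error, grouped by class and coloured red for mitotic, blue for transport and grey for other; filled points passed the test and open points did not. Of the 13 mitotic kinesins 10 lie below 0 as filled points, whereas the 12 transport kinesins spread on both sides, from -1.56 for KIF3C to 0.53 for KIF13B. KIF18A, KIF24, KIFC2 and KIF5B change call with the scaling.

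The order of levels was compared per kilobase of merged exon, since longer transcripts give more reads. In the knockdown cells the highest was the transport motor KIF5B at 38.3 ± 2.11 CPM per kb, followed by the mitotic motors KIFC1 at 35.2 ± 1.11 and KIF2C at 30.9 ± 1.58 CPM per kb (SD, n = 3), and the libraries of KIF5B and KIFC1 overlapped. In the control cells KIFC1 came first at 46.7 ± 0.521 CPM per kb, above KIF5B at 36.7 ± 1.39 and KIF2C at 32.9 ± 0.371 CPM per kb (SD, n = 3), with no overlap between these neighbours. By their means KIFC1 and KIF5B changed places, but with the overlap their order in the knockdown cells is not settled. All 13 tested mitotic kinesins had a mean above 10 CPM in the control cells, against 7 of the 12 transport and 2 of the 7 other kinesins, so that the mitotic genes were also the more precisely measured ones. Among tested members the lowest levels belonged to the transport genes KIF16B and KIF5C and to KIF21A, which is placed here among the others, with 0.0479 to 0.153 CPM per kb in the knockdown and 0.0444 to 0.143 CPM per kb in the control cells.

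**Figure D2:**
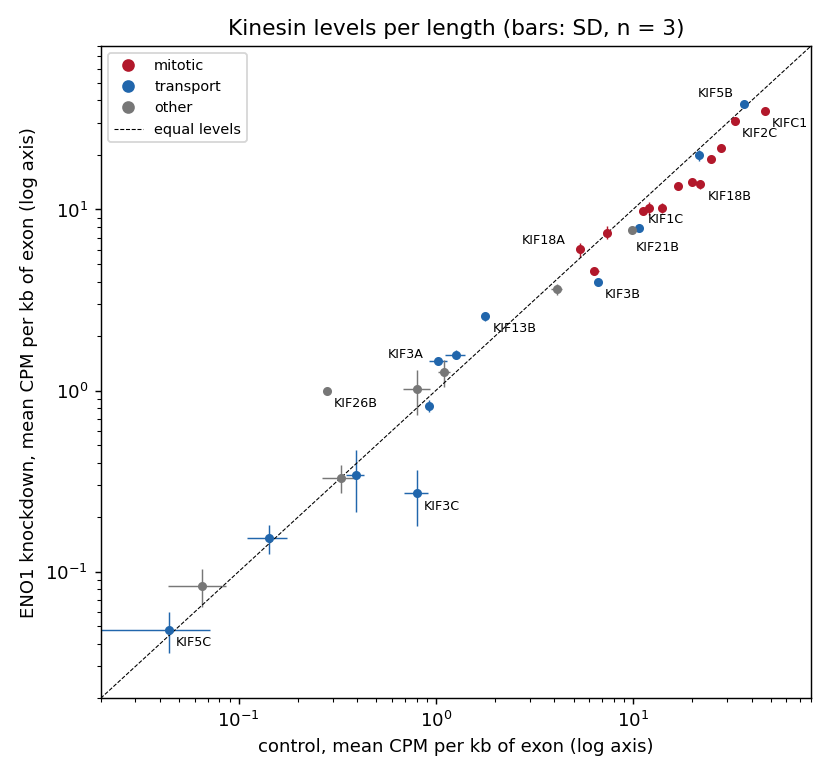
Mean level of each tested kinesin per kilobase of exon in ENO1 knockdown cells (y axis) against control cells (x axis), both on log axes, with SD over 3 libraries as bars and a dashed line of equal levels; the control bar of KIF5C runs past the axis. Mitotic kinesins in red fill the upper end and most lie under the line, KIF26B lies farthest above it at 0.994 against 0.280 CPM per kb, and KIF3C farthest below it at 0.271 against 0.800 CPM per kb.

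Most mitotic kinesins fell, by modest amounts. Of 13 tested, 10 (76.9%) were lower and none was higher, where 30.5% of all genes were lower, and the median log2 fold change was -0.36. That share covers genes of every level, whereas all 13 had a control mean above 10 CPM. With the filter at 5 CPM in 3 libraries, 7298 of 10292 genes were called in either direction, against 8767 of 14635 in the main test. A share at a like level was not computed, here or for the lists below. With knockdown replicate 3 and control replicate 2 set aside 11 were lower. With upper-quartile or library-size scaling, or without knockdown replicate 2, KIF18A was called higher and the 10 lower calls held. The fourteenth member, KIF4B, an intronless copy of KIF4A, had at most 8 counts in a library. Among motors that set up the spindle, KIF11, the tetrameric motor (Eg5) that pushes spindle poles apart, had 87.6, 92.3 and 96.1 CPM in the knockdown libraries, against 123, 121 and 121 CPM in the control libraries. Its groups did not overlap, and KIF11 fell by 0.40 ± 0.04 (approximate SE) on the log2 scale (edgeR adjusted p = 1.41e-09). KIF15, which helps to keep the spindle bipolar alongside KIF11, averaged 24.1 ± 1.14 CPM in the knockdown and 33.6 ± 1.79 CPM in the control cells (SD, n = 3). KIFC1 (HSET), a minus-end motor that focuses spindle poles and clusters extra centrosomes, had 117, 122 and 115 CPM in knockdown libraries, against 155, 156 and 158 CPM in control libraries. All 3 knockdown libraries lay below all controls, at 75.4% of the control mean.

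The microtubule depolymerases of the kinesin-13 type differed from each other in call. KIF2A, which works at spindle poles and also in non-dividing cells, was at 79.8% of the control level (log2 fold change -0.33, edgeR adjusted p = 6.55e-07). KIF2C (MCAK), which corrects faulty attachments at centromeres, had 107, 112 and 119 CPM in the knockdown libraries, against 121, 119 and 119 CPM in the control libraries. The highest knockdown library, replicate 3, reached the controls, and KIF2C was not called (edgeR adjusted p = 0.0565). Without knockdown replicate 3 it was lower, with a log2 fold change of -0.13 (edgeR adjusted p = 0.00132). With no low-count filter KIF2C was also called lower, at -0.11 (edgeR adjusted p = 0.0143). Of the chromokinesins, which bind chromosome arms, KIF22 had 96.6, 95 and 89.8 CPM in the knockdown libraries, against 122, 118 and 121 CPM in the control libraries. KIF4A, which also controls microtubule length in the central spindle, had a smaller change at 86.9% of the control level (edgeR adjusted p = 0.00118).

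Motors of late mitosis and cytokinesis fell too, with an exception. KIF20A (MKLP2), which carries the chromosomal passenger complex to the central spindle, had 55.3, 55.9 and 57.4 CPM in the knockdown libraries, against 75.7, 79.0 and 81.3 CPM in the control libraries. KIF23 (MKLP1), the motor subunit of the centralspindlin complex, had 66.1, 63.5 and 72.0 CPM in the knockdown libraries, against 92.6, 91.6 and 92.0 CPM in the control libraries. Both genes were cleanly separated between groups, with log2 fold changes of -0.49 and -0.45. KIF20B, which acts at the midbody, fell less, by 0.24 on the log2 scale (edgeR adjusted p = 0.000279). KIF14, a cytokinesis motor that recruits citron kinase, averaged 54.3 ± 4.33 CPM in the knockdown and 54.0 ± 1.2 CPM in the control cells (SD, n = 3). Its groups overlapped and it was not called (log2 fold change 0.01 ± 0.0538 SE, edgeR adjusted p = 0.926).

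Of the kinesin-8 pair, KIF18B fell and KIF18A was not called. KIF18B, which shortens the astral microtubules, had 68.0, 64.0 and 61.0 CPM in the knockdown libraries, against 101, 101 and 103 CPM in the control libraries. This was the largest change among mitotic kinesins, with a log2 fold change of -0.66 ± 0.0442 SE (edgeR adjusted p = 4.74e-13). KIF18A, which damps the movements of chromosomes at the metaphase plate, had 27.9, 25.7 and 30.7 CPM in the knockdown libraries, against 25.3, 24.0 and 26.2 CPM in the control libraries. The groups overlapped, and the log2 fold change of 0.16 did not pass (edgeR adjusted p = 0.0534), although it passed with library-size scaling at 0.21 (edgeR adjusted p = 0.0112) and without knockdown replicate 2 at 0.22 (edgeR adjusted p = 0.0159). The ratio of KIF18A to KIF18B, each per kilobase, was 0.410, 0.401 and 0.502 in the knockdown libraries, against 0.250, 0.236 and 0.252 in the control libraries. An exact two-sided permutation test over the libraries gave p = 0.1, the smallest that 3 against 3 libraries allow. The groups of KIF18B lay far apart and KIF18A varied little, so this outcome was fixed beforehand and adds no support. Without knockdown replicate 3 the log2 fold change of KIF18A alone was 0.09. KIF18A was singled out after its values were seen, as were the library values of KIF11, KIF20A and KIF23.

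Letters of elements known from cell cycle promoters were found in most windows of mitotic kinesins. In windows from 250 bases before to 50 bases after each transcript start, taken from RefSeq on GRCh38.p14, 30 of the 37 members had at least 1 window. The 7 without a window were KIF5A, KIF13B, KIF21B, KIF26B, KIF27, KIFC2 and KIFC3. Windows came from 14 mitotic, 10 transport and 6 other genes. Some genes had more than 1 window, mainly transport genes such as KIF1A and KIF1B, and count more than once below. The cell cycle homology region (CHR), written TTTGAA, was searched on both strands, as was the CCAAT box bound by NF-Y, and the related TTTAAA, which reads the same on both strands. TTTGAA was present in 10 of 15 windows of mitotic kinesins (66.7%), in 1 of 15 windows of transport kinesins (6.67%) and in none of 7 windows of the others, against 15.2% of all 35116 windows. CCAAT was present in 11 of the 15 mitotic windows (73.3%) and 5 of the 15 transport windows (33.3%), against 34.6% of all windows. Both stood in 9 mitotic windows (60.0%) and 1 transport window, that of KIF5B, against 5.90% of all windows. TTTAAA was present in 4 of the 15 mitotic windows and 1 transport window, against 12.2% of all windows. Both TTTGAA and CCAAT stood in 2 of the 3 windows of mitotic members without a call and in 6 of the 11 windows of members that fell. A match is a description of letters and not a bound site.

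The windows of the kinesin-8 pair and of the cytokinesis motors KIF20A and KIF23 are shown. KIF18B, KIF20A and KIF23 were among the mitotic kinesins that fell most, while KIF18A did not fall. KIF15, not shown, had a log2 fold change of -0.48, against -0.45 for KIF23, and its window held TTTGAA without CCAAT. Of the other lower members not shown, KIF11, KIF20B, KIF4A and KIFC1 held both TTTGAA and CCAAT. KIF2A held none of the 3 motifs, and KIF22 held neither TTTGAA nor TTTAAA. The windows shown lie at chr17:44947724-44948023 on the minus strand for KIF18B, chr11:28108107-28108406 on the minus strand for KIF18A, chr5:138178862-138179161 on the plus strand for KIF20A and chr15:69414099-69414398 on the plus strand for KIF23. Each is written 5′ to 3′ in the direction of transcription, and capitals mark matches to the 3 motifs just named, on either strand, none of which overlapped another in these windows.
KIF18B: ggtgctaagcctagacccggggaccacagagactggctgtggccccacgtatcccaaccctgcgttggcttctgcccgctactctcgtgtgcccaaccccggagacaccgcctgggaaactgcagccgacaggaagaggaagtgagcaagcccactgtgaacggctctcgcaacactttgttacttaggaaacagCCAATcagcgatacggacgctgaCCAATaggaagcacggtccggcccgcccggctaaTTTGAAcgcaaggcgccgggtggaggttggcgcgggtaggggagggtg
KIF18A: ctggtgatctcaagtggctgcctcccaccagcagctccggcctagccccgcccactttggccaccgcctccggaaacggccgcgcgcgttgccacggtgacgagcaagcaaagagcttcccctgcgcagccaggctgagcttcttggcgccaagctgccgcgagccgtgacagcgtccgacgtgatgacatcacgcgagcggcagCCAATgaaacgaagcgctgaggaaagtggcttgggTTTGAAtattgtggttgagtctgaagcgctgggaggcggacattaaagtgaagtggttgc
KIF20A: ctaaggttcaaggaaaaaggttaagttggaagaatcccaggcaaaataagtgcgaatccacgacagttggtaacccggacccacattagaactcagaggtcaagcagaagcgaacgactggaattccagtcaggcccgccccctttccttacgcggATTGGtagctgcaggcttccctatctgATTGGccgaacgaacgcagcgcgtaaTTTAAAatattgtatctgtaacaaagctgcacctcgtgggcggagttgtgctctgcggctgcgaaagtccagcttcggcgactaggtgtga
KIF23: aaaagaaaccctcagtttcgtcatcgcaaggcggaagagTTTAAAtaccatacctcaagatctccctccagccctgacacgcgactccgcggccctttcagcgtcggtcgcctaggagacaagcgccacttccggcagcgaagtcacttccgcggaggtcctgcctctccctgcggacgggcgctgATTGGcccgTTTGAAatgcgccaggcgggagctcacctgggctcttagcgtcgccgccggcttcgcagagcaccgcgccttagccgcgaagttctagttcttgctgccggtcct
CCAAT on the other strand reads ATTGG. KIF18B held 2 CCAAT matches upstream of a single TTTGAA, and KIF18A held 1 of each in the same order. KIF23 held 1 CCAAT match just upstream of TTTGAA, and a TTTAAA farther upstream. KIF20A held 2 CCAAT matches and a TTTAAA, with no TTTGAA in the window.

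Transport kinesins moved in both directions. Of 12 tested, 4 (33.3%) were lower and 3 (25.0%) higher, close to the 30.5% and 29.4% of all genes, and the median log2 fold change was -0.03, or -0.14 without control replicate 2. With knockdown replicate 3 and control replicate 2 set aside 4 were lower and 3 higher, with KIF1B called lower (-0.23, edgeR adjusted p = 0.0439) and KIFC2 no longer called (-0.08, edgeR adjusted p = 0.0865). Of the 7 with a control mean above 10 CPM, 3 were lower and 2 higher. Of the lower calls, that of KIFC2 was lost under several settings. KIF1A and KIF5A, motors found mainly in neurons, had at most 10 counts in a library.

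The subunits of the kinesin-2 motor, which carries intraflagellar transport trains into cilia and also vesicles, changed in opposite directions. KIF3A, the subunit common to both known heterodimers, had 9.95, 9.85 and 9.98 CPM in the knockdown libraries, against 7.21, 7.67 and 6.24 CPM in the control libraries. It rose by 0.50 ± 0.11 SE on the log2 scale (edgeR adjusted p = 0.000337). KIF3B, its usual partner, had 24.0, 25.7 and 23.6 CPM in the knockdown libraries, against 41.1, 40.8 and 39.1 CPM in the control libraries. It fell to 60.6% of the control mean (log2 fold change -0.72 ± 0.0601 SE, edgeR adjusted p = 4.53e-11). KIF3C, the alternative partner, had 2.42, 1.45 and 1.33 CPM in the knockdown libraries, against 4.59, 4.84 and 5.95 CPM in the control libraries. At a log2 fold change of -1.56 ± 0.202 SE it had the largest fall of the family, from few reads: 27 to 52 counts in the knockdown and 118 to 145 counts in the control libraries (edgeR adjusted p = 1.81e-07). KIFAP3, the subunit that links the heterodimer to cargo, fell to 7.55 ± 0.244 CPM in the knockdown cells, against 9.41 ± 0.547 CPM in the control cells (SD, n = 3; edgeR adjusted p = 0.0122). For KIF3A, KIF3B and KIF3C the groups did not overlap.

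Per kilobase, KIF3B stayed the most abundant of the 3 motor subunits. The ratio of KIF3A to KIF3B was 0.368, 0.340 and 0.377 in the knockdown libraries, against 0.156, 0.167 and 0.142 in the control libraries, so all knockdown libraries were above all controls. The ratio of KIF3C to KIF3A was 0.260, 0.158 and 0.142 in the knockdown libraries, against 0.682, 0.676 and 1.02 in the control libraries. For both ratios an exact two-sided permutation test gave p = 0.1, again the smallest possible. KIF3A rose and KIF3B and KIF3C fell without overlap of the groups, so this outcome was fixed beforehand and adds no support. KIF3A, KIFAP3 and these ratios were singled out after their values were seen. The promoter windows of the motor subunits are shown for comparison with those of the mitotic kinesins, at chr5:132737497-132737796 on the minus strand for KIF3A, chr20:32277401-32277700 on the plus strand for KIF3B and chr2:25982448-25982747 on the minus strand for KIF3C, with the same letters in capitals.
KIF3A: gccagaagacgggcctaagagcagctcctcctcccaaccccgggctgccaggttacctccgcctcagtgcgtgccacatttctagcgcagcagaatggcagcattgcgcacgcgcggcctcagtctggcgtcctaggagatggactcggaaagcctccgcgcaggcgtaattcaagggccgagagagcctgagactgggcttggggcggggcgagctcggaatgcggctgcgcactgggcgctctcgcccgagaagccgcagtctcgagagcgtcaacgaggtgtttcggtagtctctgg
KIF3B: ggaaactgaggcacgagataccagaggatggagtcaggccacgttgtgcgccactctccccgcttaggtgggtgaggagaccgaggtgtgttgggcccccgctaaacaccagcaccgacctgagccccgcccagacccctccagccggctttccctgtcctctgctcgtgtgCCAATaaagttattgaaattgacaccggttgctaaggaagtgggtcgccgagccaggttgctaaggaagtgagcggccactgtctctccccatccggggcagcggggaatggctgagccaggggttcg
KIF3C: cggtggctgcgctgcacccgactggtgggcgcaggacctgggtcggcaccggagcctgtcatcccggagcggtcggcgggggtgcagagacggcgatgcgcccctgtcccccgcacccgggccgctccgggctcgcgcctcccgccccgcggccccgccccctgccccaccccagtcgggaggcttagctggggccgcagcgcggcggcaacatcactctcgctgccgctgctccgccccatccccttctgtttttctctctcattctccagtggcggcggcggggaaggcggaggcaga
None of these windows held TTTGAA or TTTAAA, and of the 3 only that of KIF3B held CCAAT.

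The main cargo motor showed no call. KIF5B, the kinesin-1 heavy chain of most tissues, had 224, 213 and 238 CPM in the knockdown libraries, against 224, 214 and 208 CPM in the control libraries. The groups overlapped and the log2 fold change was 0.06 (edgeR adjusted p = 0.157), while library-size scaling gave 0.12 with a call (edgeR adjusted p = 0.0102), and leaving out knockdown replicate 2 gave 0.10 (edgeR adjusted p = 0.0395). Of its light chains, KLC1 had the highest level per kilobase in both groups, and had 57.6 ± 0.377 CPM in the knockdown and 53.3 ± 0.67 CPM in the control cells (SD, n = 3; log2 fold change 0.11, edgeR adjusted p = 0.0424), though 36.9% of its stretches are shared. KLC2 had 7.78 ± 0.558 CPM in the knockdown and 12.3 ± 0.776 CPM in the control cells, whereas KLC4 had 15.5 ± 1.08 CPM in the knockdown and 12 ± 0.353 CPM in the control cells (SD, n = 3). KLC2 fell by 0.66 and KLC4 rose by 0.36 on the log2 scale. KLC1 and KLC4 were picked with their values known.

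Among kinesin-3 motors, KIF13B, which carries membrane proteins and scaffold proteins, had 28.7, 30.3 and 27.0 CPM in the knockdown libraries, against 19.9, 20 and 19.4 CPM in the control libraries. Its groups were clearly apart, with a log2 fold change of 0.53 ± 0.0683 SE (edgeR adjusted p = 1.43e-07). KIF1C, which moves dense-core vesicles and integrins, had 71.5, 66.6 and 64.9 CPM in the knockdown libraries, against 91.5, 92.0 and 92.8 CPM in the control libraries. It fell to 73.4% of the control mean (edgeR adjusted p = 1.35e-09). KIF1B, a motor of mitochondria and synaptic vesicle precursors, was below every control library in every knockdown library yet was not called (edgeR adjusted p = 0.0784). Without knockdown replicate 3 it was called lower, at -0.24 (edgeR adjusted p = 0.0211), as it was with control replicate 2 set aside too. KIF16B, a motor of early endosomes, averaged 1.18 CPM in the knockdown and 1.1 CPM in the control cells and had no call. KIF17, a homodimeric kinesin-2 of dendrites and cilia, averaged 1.52 CPM in the knockdown and 1.76 CPM in the control cells and had no call either.

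The minus-end transport motors also went both ways. KIFC3, which acts at the Golgi and at cell junctions, averaged 15.2 ± 0.823 CPM in the knockdown and 12.1 ± 1.46 CPM in the control cells (SD, n = 3) and rose by 0.33 on the log2 scale (edgeR adjusted p = 0.00399). KIFC2, described as a neuronal motor in mouse, had 93.0, 91.3 and 81.4 CPM in the knockdown libraries, against 95.6, 93.4 and 99.5 CPM in the control libraries. Its fall of 0.12 on the log2 scale passed (edgeR adjusted p = 0.0296) but was lost with DESeq2, with upper-quartile and library-size scaling, with the filter at 5 CPM and without knockdown replicate 3 (-0.07), control replicate 1 (-0.13) or control replicate 3 (-0.09). Of its 50-base stretches, 15.8% also occurred in transcripts of other genes, mainly FOXH1 on the opposite strand, so its count is uncertain.

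**Figure D3:**
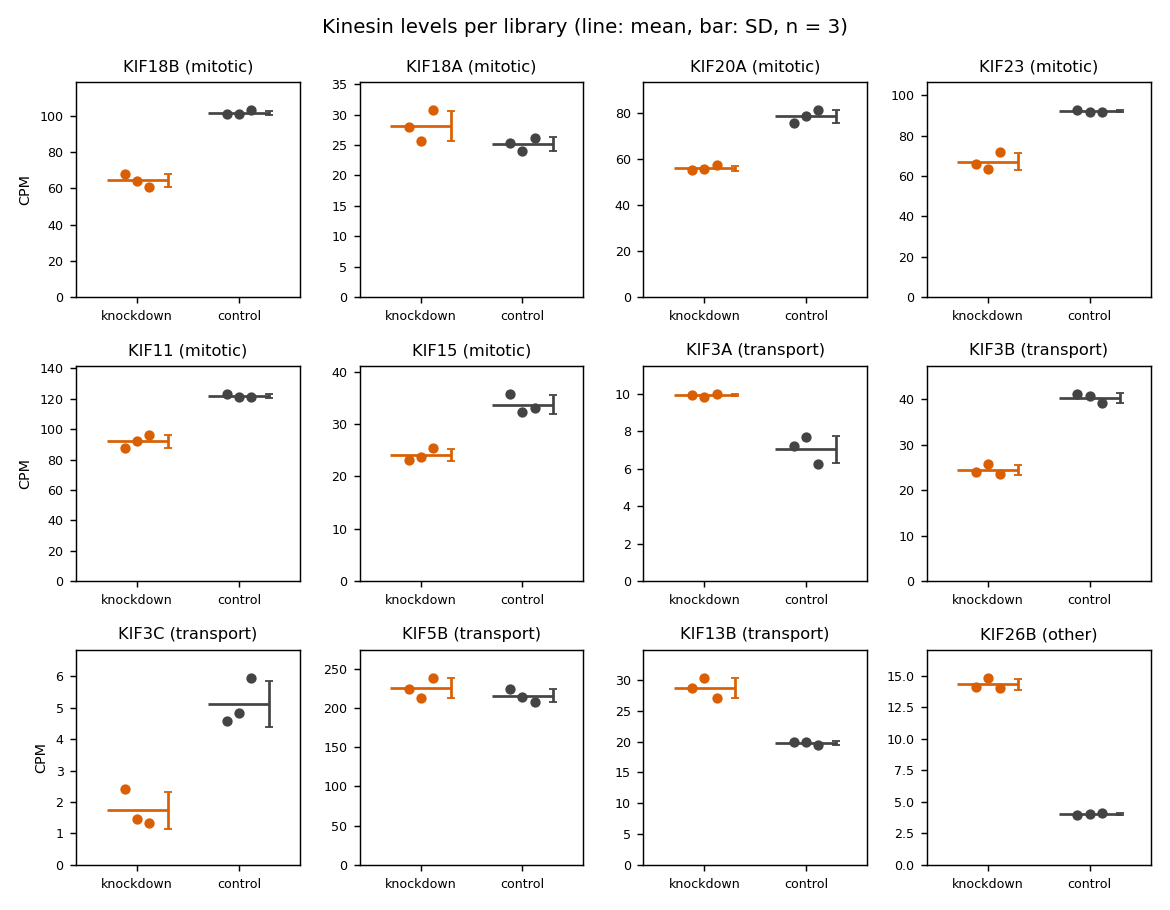
Level of 12 kinesins in each library in CPM (y axis from 0), with ENO1 knockdown on the left and control on the right of each panel; points are libraries, lines are means and bars are SD (n = 3). KIF18B, KIF20A, KIF23, KIF11, KIF15, KIF3B and KIF3C lie lower in all knockdown libraries, KIF3A, KIF13B and KIF26B lie higher, and KIF18A and KIF5B overlap.

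The remaining kinesins included the largest rise among the tested members of the family. Of 7 tested, 1 (14.3%) was higher and 2 (28.6%) were lower, against 29.4% and 30.5% of all genes. KIF26B, at chr1:245154985-245709431 on the plus strand (GRCh38), an atypical member that is thought to lack motor activity and is known from kidney development in mouse, had 14.1, 14.8 and 14.0 CPM in the knockdown libraries, against 3.93, 4.02 and 4.14 CPM in the control libraries. The knockdown level was 355% of the control level, with a log2 fold change of 1.83 ± 0.109 SE (edgeR adjusted p = 3.98e-14). Its close relative KIF26A had 6, 11 and 9 counts in the knockdown libraries, against 0, 0 and 5 counts in the control libraries, too few to be tested. KIF21B, a regulator of microtubule growth known from lymphocytes and neurons, had 98.3, 93.9 and 90.0 CPM in the knockdown libraries, against 119, 121 and 119 CPM in the control libraries. It fell to 78.5% of the control mean (edgeR adjusted p = 1.92e-08), while its paralog KIF21A was below 1.1 CPM in every library.

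KIF24, which restrains the growth of cilia at the mother centriole, had 22.8, 20.6 and 23.7 CPM in the knockdown libraries, against 24.1, 26.9 and 24.5 CPM in the control libraries. Its call as lower was borderline (log2 fold change -0.17, edgeR adjusted p = 0.0425) and was lost with DESeq2, with upper-quartile and library-size scaling and with the filter at 5 CPM. It was also lost without knockdown replicate 1 (-0.19) or 2 (-0.12) and without control replicate 2 (-0.12) or 3 (-0.19). KIF9, a motor of motile cilia, had 6.18, 8.67 and 7.28 CPM in the knockdown libraries, against 6.21, 6.19 and 6.98 CPM in the control libraries, and was not called. KIF7, the ciliary regulator of Hedgehog signalling, had a log2 fold change of -0.0012, and KIF27, its paralog, had 0.33 without a call, though without knockdown replicate 2 it had 0.51 and a call (edgeR adjusted p = 0.0168). More than 10% of the 50-base stretches of KIF4A, KIF4B, KIF9, KIF22, KIF27, KIFC1 and KIFC2 also occurred in other transcripts, and their counts are uncertain to that extent. For KIF27 the share was 31.7%.

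Summed over members, the classes differed in how much they changed. The mitotic kinesins together had 874, 881 and 913 CPM in the knockdown libraries, against 1124, 1107 and 1123 CPM in the control libraries, which is 79.6% of the control sum. The transport kinesins together had 486, 472 and 480.5 CPM in the knockdown libraries, against 517, 504 and 503 CPM in the control libraries, or 94.4%. The others together reached 90.3%. As a plain share of all counts, without scaling between libraries, the mitotic sum was at 82.5% and the transport sum at 97.9% of the control. KIF5B alone averaged 225 CPM in the knockdown and 216 CPM in the control cells, and the sums carry no test because the classes were drawn up with earlier results of these data known.

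Genes that work with mitotic kinesins were mostly lower too. Of 20 partners, 14 (70.0%) were lower and none was higher, against 30.5% lower and 29.4% higher over all genes, and their median log2 fold change was -0.25. TPX2, which activates Aurora A and targets KIF11 and KIF15 to the spindle, averaged 166 ± 2.78 CPM in the knockdown and 237 ± 1.5 CPM in the control cells (SD, n = 3). AURKB, the kinase of the chromosomal passenger complex that KIF20A carries, had a log2 fold change of -0.58, KNSTRN of -0.60 and the mitotic kinase PLK1, with 10.5% of its stretches shared, of -0.46. RACGAP1, the partner of KIF23 in centralspindlin, fell by 0.15 on the log2 scale; it was picked with its value known. PRC1, the partner of KIF4A, was at 2.45 ± 0.474 CPM in the knockdown and 1.82 ± 0.471 CPM in the control cells (SD, n = 3), but 51.3% of its stretches lie in transcripts of another annotated gene, so its level is not reliable. It was not called and was also named after its value was seen. CENPE, the kinesin of the kinetochore whose symbol does not start with KIF, averaged 57.8 ± 4.46 CPM in the knockdown and 71.8 ± 0.894 CPM in the control cells (SD, n = 3; log2 fold change -0.31, edgeR adjusted p = 5.22e-06). STARD9, another kinesin without a KIF symbol, was not called (log2 fold change 0.10).

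Regulators of mitotic transcription, 21 in all, had 12 genes lower and 3 higher, or 13 and 1 with knockdown replicate 3 and control replicate 2 set aside, and their median log2 fold change was -0.27. These are 57.1% lower and 14.3% higher, against 30.5% and 29.4% of all genes. Without control replicate 2 alone, 1 was higher. FOXM1 averaged 79.6 ± 1.73 CPM in the knockdown and 132 ± 3.98 CPM in the control cells (SD, n = 3), a log2 fold change of -0.73, although 13.7% of its stretches are shared. MYBL2, TFDP1 and E2F4 had log2 fold changes of -0.55, -0.69 and -0.57. Of 13 tested tubulins, the track on which kinesins walk, 10 (76.9%) were lower, against 30.5% of all genes, and none higher, and the median log2 fold change was -0.32. TUBB6 and TUBA1A had log2 fold changes of -0.99 and -1.27, and TUBB and TUBA1B of -0.44 and -0.54; of these genes, 17.0 to 38.7% of stretches also occur in transcripts of other genes, mainly other tubulins or a tubulin pseudogene for TUBA1A, TUBA1B and TUBB and AFG3L2 for TUBB6, so their counts are uncertain.

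Genes of cargo transport were mixed, as were the transport kinesins. Of 19 light chains and cargo adaptors, 8 were higher and 5 lower, and the median log2 fold change was 0.10; without knockdown replicate 2 or control replicate 1, 5 were higher, and with upper-quartile or library-size scaling 10 or 11 were. MADD, which links KIF1 motors to vesicles, averaged 162 ± 1.53 CPM in the knockdown and 118 ± 1.34 CPM in the control cells (SD, n = 3), and the scaffold SPAG9 rose by 0.41 on the log2 scale. TRAK2, which couples kinesin-1 to mitochondria, had a log2 fold change of -0.44. KIFBP, which binds and inhibits several kinesins, was also at -0.44, and its value was known when it was chosen. Of 28 genes of dynein and dynactin, the motor that moves in the opposite direction, 11 were higher and 8 lower, and their median was 0.07. The dynactin subunit DCTN4 rose by 0.71, NUMA1, which anchors dynein at spindle poles, by 0.56 and the light intermediate chain DYNC1LI2 by 0.43, whereas the light chain DYNLL2 had a log2 fold change of -0.78. More than 10% of the stretches of NUMA1 and DYNC1LI2 are shared. Higher calls made up 42.1% of the adaptors and 39.3% of the dynein and dynactin genes, against 29.4% of all genes, and lower calls 26.3% and 28.6%, against 30.5%. No test set one list against another.

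**Figure D4:**
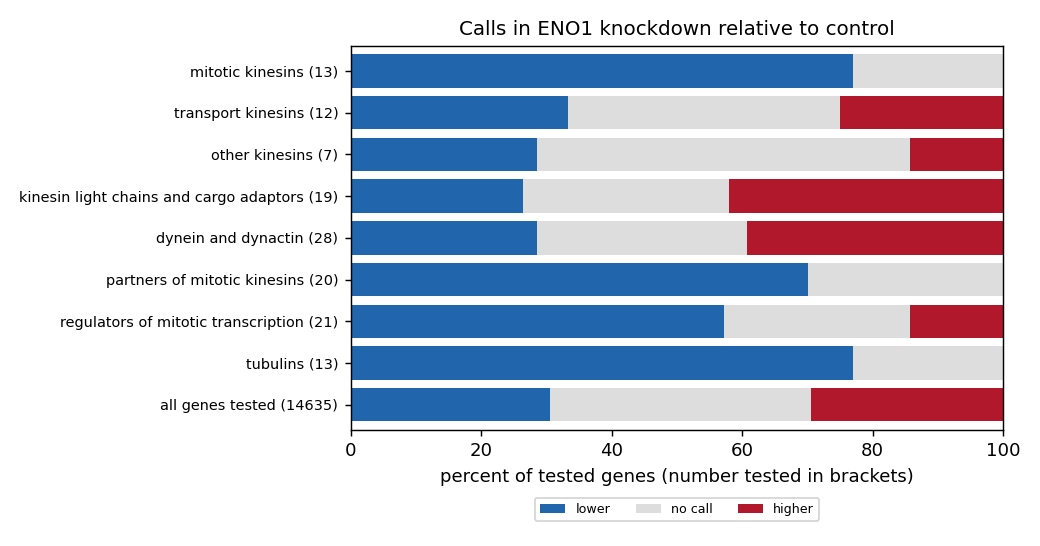
Percent of the tested genes of each list called lower (blue, left), not called (grey) or higher (red, right) in ENO1 knockdown cells relative to control cells; the number tested is given in brackets and the bottom bar shows all genes. Lower calls make up 76.9% of the mitotic kinesins, 70.0% of their partners and 76.9% of the tubulins, against 33.3% of the transport kinesins and 30.5% of all genes.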

How the data were processed

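Total RNA from Trizol extracts went into TruSeq libraries, per the labels' protocols. HISAT2 2.0.5 and build hg38 were used, per the submitters' processing notes; for the read counter, its annotation and its use of strand the answer is: not given in the sources used here. Whole-number counts per Ensembl gene, not normalized, were deposited by the authors, and per the file headers each library has 1 column. Symbols were found for 23211 of 23227 identifiers; type, position and merged exon length came from GENCODE release 29 (GRCh38), and promoter windows from RefSeq (GRCh38.p14).

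The test was that of edgeR 4.0.16 under R 4.3.3 (TMM factors, filterByExpr, robust glmQLFit and glmQLFTest, two-sided, Benjamini-Hochberg adjustment over 14635 genes, threshold 0.05). CPM uses library sizes after TMM. An SE is approximate, being the size of the log2 fold change over the root of its F value. The filter asks for about 0.431 CPM in 3 libraries; only KIF5C passed with the mean of 1 group below that level. For each gene the share of its 50-base stretches found in transcripts of other genes, on either strand, was computed. The procedure was tested on simulated data with far fewer changed genes than were called here, so that test cannot judge the choice of scaling.

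Members, classes and lists were chosen with earlier results of these data known. Values per library are given for called members with non-overlapping groups and an absolute log2 fold change of at least 0.5, for the 3 members of each class with the highest level per length, and for KIF3A, KIF11, KIF18A, KIF20A and KIF23 because of their roles, all 5 with their values known; of each further list up to 4 genes with the smallest adjusted p are named. Libraries of a group differed by more than sampling noise (chi-square per degree of freedom 2.1 to 4.2). Replicate numbers were not used to pair the samples in the main test. Alternatives were other scalings and filters, DESeq2 1.42.0, limma-voom (limma 3.58.1), the replicate block, each library left out, other thresholds, other classes for KIF2A, KIF21A and KIF21B and, added after the data were seen, setting aside the 2 libraries that stood apart.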

Additional observations from a re-analysis of the deposited data

How the results depend on the processing

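Of the 20 called kinesins, 18 kept their direction and call in every one of the 15 refits that gave them a value; the exceptions were KIFC2 and KIF24. Mitotic kinesins called lower numbered 10 or 11 in these refits. Setting aside knockdown replicate 3 and control replicate 2 was an alternative chosen after seeing the data. Of the mitotic kinesins 1 was called higher with upper-quartile and library-size scaling, with the filter at 5 CPM in 3 libraries and with the replicate block. The mitotic median was -0.32 with upper-quartile scaling and with the 5 CPM filter, -0.31 with library-size scaling, -0.40 with no filter, and -0.38 both without the 2 libraries that stood apart and with KIF2A moved to the others. Library-size scaling gave a family median of -0.12 and shifted all log2 fold changes by a median of 0.053. Asking for at least 1.5-fold left 1 kinesin higher and 3 lower: 1 mitotic lower, 2 transport lower and 0 higher, and 0 others lower. With the 5 CPM filter 2 transport kinesins were lower, and with no filter the transport median was 0.05. Among the others 1 was lower, in place of 2, with upper-quartile or library-size scaling, the 5 CPM filter, DESeq2, the replicate block, the 2 libraries set aside, a threshold of 0.01 or KIF21A and KIF21B moved to transport. With no filter 2 others were higher, and with the 5 CPM filter their median was 0.05.

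For CENPE and STARD9 the number lower was 0 at 1.5-fold. The median of light chains and adaptors was 0.14 with upper-quartile scaling, 0.15 with library-size scaling, 0.02 with no filter and 0.06 with the 2 libraries set aside; 5 were higher at a threshold of 0.01, and 2 were higher and 1 lower at 1.5-fold. The median of dynein and dynactin was 0.10 with upper-quartile scaling, 0.12 with library-size scaling and 0.04 with the 2 libraries set aside, with 1 higher and 1 lower at 1.5-fold. Of the partners of mitotic kinesins 1 was higher with upper-quartile or library-size scaling or the 5 CPM filter and 1 was lower at 1.5-fold; their median was -0.21 with upper-quartile scaling, -0.19 with library-size scaling and -0.27 with no filter. For regulators of mitotic transcription the median was -0.23 with upper-quartile and -0.22 with library-size scaling, 6 were higher with library-size scaling, 1 was higher with the 2 libraries set aside, and 0 were higher and 3 lower at 1.5-fold. Of the tubulins 1 was higher with no filter, 2 were lower at 1.5-fold and the median was -0.40 with the 5 CPM filter.

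Leaving out each library in turn gave 4 to 7 kinesins higher, 0 to 1 mitotic higher, 1 to 2 others higher and 1 to 2 others lower, a mitotic median of -0.37 to -0.35 and a transport median of -0.14 to -0.0048. It gave 5 to 8 adaptors higher with a median of 0.06 to 0.11, a dynein and dynactin median of 0.04 to 0.08, 0 to 1 partners higher, and 1 to 4 regulators higher with a median of -0.30 to -0.23. The count of 7 kinesins higher was reached without knockdown replicate 2, where KIF5B, KIF18A and KIF27 were called higher, and KIF1B was called lower without knockdown replicate 3. Members without a call changed sign: KIF14 at -0.02 with no filter, -0.06 with the 2 libraries set aside and -0.06 to 0.04 when libraries were left out; KIF16B at -0.08 to 0.25 when libraries were left out; KIF5C at -0.39 with the 2 libraries set aside, -0.23 to 0.70 when libraries were left out; and KIF7 at 0.00076 (RLE), 0.04 (upper-quartile), 0.05 (library size), 0.0016 (DESeq2 and replicate block), 0.0031 (limma-voom), 0.09 with the 2 libraries set aside, -0.12 to 0.16 when libraries were left out. Deviations of same-numbered libraries from their group means correlated at -0.0173 to 0.0111, so no shared effect of the replicate number was seen. This cannot settle if same-numbered libraries were prepared together. With the replicate block 5 kinesins were higher and 15 lower. The cause of these changes was not tested. Members under about 2 CPM were too shallow for small changes to be detected.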
